A study of Rattus norvegicus with 12 samples.

Results

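Glucose output, glycogen handling and the response to insulin were followed in rat liver through 10 genes: Pck1, Fbp1, Pklr, Gys2, Pygl, Slc2a2, Ppargc1a, Irs2, Foxo1 and Insr. Every probe set that the platform annotation gave to one of these symbols alone was taken, which gave 16 probe sets of the 31042 on the array that are not controls, and 10 genes of 14217 with a single symbol. Of the 16, 13 reached a mean signal of 19.7, the median over all probe sets, and entered the test. Each of the 10 genes had at least 1 such probe set. The other 3 probe sets, 1 of Ppargc1a and 2 of Foxo1, are described by their signals.

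The livers came from 12 rats, with 1 array per animal and 3 animals per group. Germ-free Sprague Dawley rats (animals 1, 3 and 4) were set against Sprague Dawley rats labelled normal and not germ-free, called conventional here (animals 6, 7 and 8). Han Wistar rats dosed with streptomycin (4 mg/ml) and penicillin (2 mg/ml) through the drinking water for 8 days until necropsy (animals 13, 14 and 15) were set against Han Wistar rats without antibiotic, called untreated here (animals 1, 2 and 3). The labels do not settle whether these concentrations refer to the stock solution or to the diluted drinking water, and they give no age, sex, diet, feeding state or time of day for any animal. Strain and experiment change together with the kind of treatment, so strains were not compared, and a difference between the comparisons cannot be told apart from one between strains.

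The liver releases glucose by breaking down glycogen and by building new glucose from lactate, glycerol and amino acids, and it stores glucose as glycogen after a meal. Glucagon raises cyclic AMP in hepatocytes, and the kinase that cyclic AMP activates switches on glycogen phosphorylase and, through CREB and the coactivator encoded by Ppargc1a, the gene for phosphoenolpyruvate carboxykinase. Insulin acts through its receptor and the Irs proteins to exclude Foxo1 from the nucleus, which lowers transcription of the same enzyme genes.

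Promoter windows from RefSeq (build GRCr8, from 250 bases before to 50 bases after the annotated start) were at hand for 9 of the 10 genes, all except Irs2. They were searched on both strands for the cyclic AMP response element TGACGTCA, its 5-base part TGACG (which TGACGTCA contains on both strands), the E-box CACGTG, the FOXO motif TGTTTAC and the insulin response core CAAAACA. Matches were found in 3 windows, which are shown because they carry the letters through which the hormone pathways above are known to act. Capitals mark the matched letters, and CGTCA is TGACG read on the other strand.
Pck1, chr3:182348322-182348621, + strand: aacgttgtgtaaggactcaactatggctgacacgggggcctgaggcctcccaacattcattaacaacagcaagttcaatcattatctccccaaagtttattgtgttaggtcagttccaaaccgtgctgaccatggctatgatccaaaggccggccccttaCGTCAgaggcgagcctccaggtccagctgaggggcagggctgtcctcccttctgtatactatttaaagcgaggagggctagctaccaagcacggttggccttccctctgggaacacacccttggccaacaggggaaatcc
Ppargc1a, chr14:63634058-63634357, + strand: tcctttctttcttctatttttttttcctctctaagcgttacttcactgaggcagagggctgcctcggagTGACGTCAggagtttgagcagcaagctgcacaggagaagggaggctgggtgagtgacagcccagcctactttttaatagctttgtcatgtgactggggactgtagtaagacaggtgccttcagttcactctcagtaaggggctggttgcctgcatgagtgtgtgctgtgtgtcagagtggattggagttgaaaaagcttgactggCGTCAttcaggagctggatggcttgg
Insr, chr12:6128754-6129053, - strand: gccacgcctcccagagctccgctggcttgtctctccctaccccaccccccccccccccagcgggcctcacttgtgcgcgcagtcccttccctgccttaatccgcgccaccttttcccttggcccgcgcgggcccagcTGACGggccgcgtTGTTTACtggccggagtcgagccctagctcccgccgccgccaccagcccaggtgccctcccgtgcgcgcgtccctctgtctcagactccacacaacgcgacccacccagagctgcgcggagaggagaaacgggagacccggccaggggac
The match in the Pck1 window begins 90 bases before the start. The full TGACGTCA of Ppargc1a begins 181 bases before the start and a further CGTCA lies 25 bases after it. The Insr window holds TGACG at 113 and TGTTTAC at 100 bases before the start. Of 33469 promoter windows of this length, 1.83% held TGACGTCA, 21.2% TGACG, 6.42% CACGTG, 3.78% TGTTTAC and 6.28% CAAAACA, so TGACG is common, and a match describes the letters only.

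All 9 hepatocyte marker genes measured had group means of 3682 signal units or more in every group, so the labelled tissue carried its defining markers. Arrays of the same group correlated at 0.974 to 0.985 across probe sets, and no pair of arrays was identical. RNA integrity was read from the beta-actin control probe sets, as the signal at the 3' end over that at the 5' end, and was 4.39 ± 0.762 in germ-free livers, against 5.37 ± 0.839 in conventional livers (SD, n = 3 each; two-sided exact permutation p = 0.2, the smallest possible being 0.1). It was 2.73 ± 0.131 in antibiotic and 2.55 ± 0.123 in untreated livers (exact permutation p = 0.2). Every Sprague Dawley array (3.62 to 6.17) lay above every Han Wistar array (2.47 to 2.87), so this ratio also goes with the experiment. In whole liver, fewer cells of a type and less RNA per cell cannot be told apart.

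In germ-free livers Pygl and 1 of 2 Pklr probe sets rose relative to conventional livers, no member fell, and 11 of the 13 tested probe sets did not pass. Pygl rose 1.52-fold and the Pklr probe set 1.84-fold. In antibiotic livers 0 of 13 passed against untreated livers. The test was limma on log2(signal + 16), with Benjamini-Hochberg adjustment over all 15523 probe sets tested and a threshold of 0.05. The 2 calls are 15.4% of the member probe sets tested, near the 12.2% of all probe sets called in that comparison. Of all probe sets, 6.86% rose and 5.39% fell in germ-free livers (1065 and 836), a split that became 811 and 1061 when arrays were centred on their medians. In the antibiotic comparison 0.0193% of all probe sets were called. At an unadjusted p under 0.05, 5 of 13 member probe sets stood out in the germ-free and 1 in the antibiotic comparison, against 27.6% and 9.97% of all probe sets. The median log2 difference over the 13 was 0.27 in germ-free and 0.01 in antibiotic livers, beside 0.05 and 0.01 over all probe sets.

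**Figure D1:**
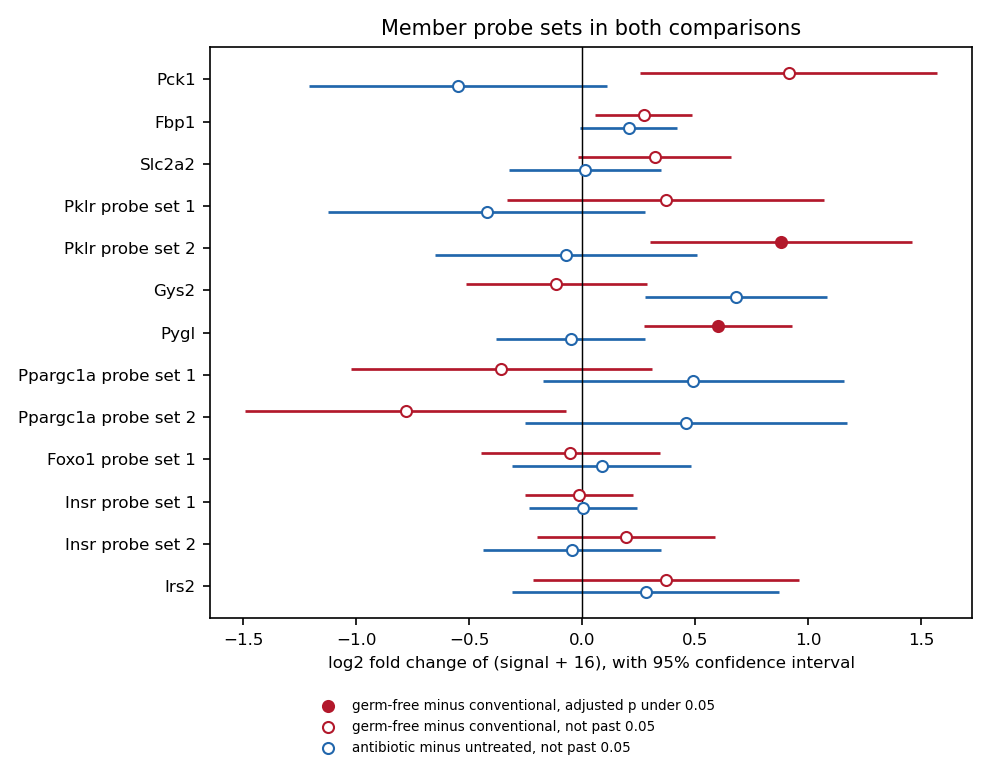
Log2 difference of (signal + 16) for the 13 member probe sets tested (points) with 95% confidence intervals (lines), for germ-free minus conventional (red) and antibiotic minus untreated (blue). Filled points passed an adjusted p of 0.05: Pygl at 0.60 and Pklr probe set 2 at 0.88, both in germ-free livers.

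Pck1 encodes the cytosolic phosphoenolpyruvate carboxykinase, which commits oxaloacetate to new glucose. Its signal (probe set 1372264_at) was 5957, 6791 and 6462 in germ-free animals 1, 3 and 4, against 1858, 4151 and 5026 in conventional animals 6, 7 and 8. All 3 germ-free livers lay above all 3 conventional livers, and the conventional group was widely spread, with animal 6 far below the others. The log2 difference was 0.91 ± 0.31 (SE), with a 95% interval of 0.26 to 1.57, and missed the threshold (limma adjusted p = 0.0675). Without conventional animal 6 it was 0.48 (adjusted p = 0.209), and without conventional animal 8 it was 1.20 and passed (0.0280). It also passed without antibiotic animal 15 (0.0419), which left the difference at 0.91 and changed the spread shared by all groups. In a fit of its own 6 arrays it did not pass (0.0824). In Han Wistar rats Pck1 read 2609, 1991 and 4406 in antibiotic animals 13, 14 and 15, against 4177, 3809 and 4535 in untreated animals 1, 2 and 3. Antibiotic animals 13 and 14 lay below all untreated animals, while animal 15 lay among them. This was a log2 difference of -0.55 ± 0.31 (adjusted p = 0.597). The estimates thus had opposite signs, and their difference was 1.46 ± 0.43 on the log2 scale (adjusted p = 0.0708), which passed without conventional animal 8 (0.0324) or antibiotic animal 15 (0.0284) and with quantile normalization (0.0388).

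Fbp1 encodes fructose bisphosphatase, a later step of the same route. Its signal (1368077_at) was 5084, 5303 and 5804 in germ-free livers, against 4172, 4277 and 4978 in conventional livers. In the other experiment it was 4181, 3721 and 3644 in antibiotic livers, against 3042, 3360 and 3612 in untreated livers. In both experiments every animal of the first group lay above every animal of the second, by a narrow margin. The log2 differences were 0.27 ± 0.10 (adjusted p = 0.0952) in germ-free livers and 0.21 ± 0.10 (adjusted p = 0.529) in antibiotic livers, and neither passed. Their difference was 0.07, with a 95% interval of -0.24 to 0.37. With quantile normalization the germ-free estimate was 0.14 (limma adjusted p = 0.210). The antibiotic estimate ranged from -0.03 to 0.26 over 24 alternatives and changed sign in 1 of them.

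Slc2a2 encodes GLUT2, the carrier through which glucose enters and leaves hepatocytes. Its signal (1387228_at) was 2045, 3310 and 2471 in germ-free livers, against 1925, 1956 and 2268 in conventional livers. Germ-free animal 3 was the highest of the 12, and the groups overlapped through germ-free animal 1. This gave a log2 difference of 0.32 ± 0.16, which did not pass (limma adjusted p = 0.203). Signals were 1957, 1678 and 2076 in antibiotic livers and 1599, 2012 and 2063 in untreated livers, which overlapped throughout. The log2 difference there was 0.01, with a 95% interval of -0.33 to 0.35.

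**Figure D2:**
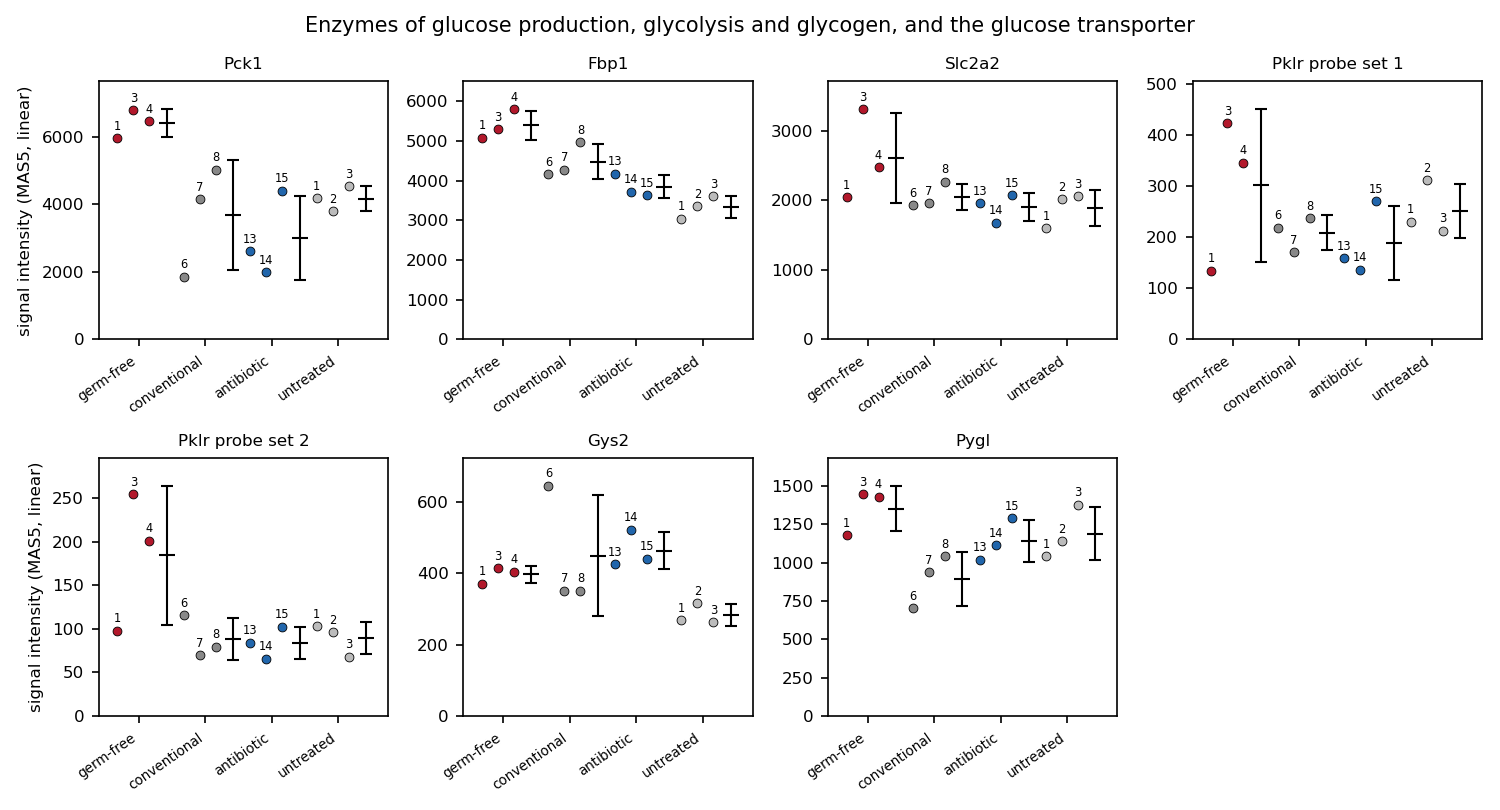
Linear signal of the 7 probe sets of the enzyme genes and Slc2a2 in each animal (points, numbered by animal), with the group mean and SD (n = 3) drawn to the right of each group. For Pygl the 3 germ-free livers (1181 to 1446) lie above the 3 conventional livers (701 to 1044), and for Gys2 the 3 antibiotic livers (426 to 523) lie above the 3 untreated livers (263 to 317).

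Pklr encodes the pyruvate kinase of liver and red blood cells, which runs in the opposite direction, at the last step of glycolysis. Probe set 2 (1387263_at) read 97.8, 255 and 201 in germ-free animals 1, 3 and 4, against 116, 69.9 and 79.5 in conventional animals 6, 7 and 8. Germ-free animals 3 and 4 were the highest of all 12, while animal 1 lay below conventional animal 6. The log2 difference was 0.88 ± 0.27, just past the threshold (adjusted p = 0.0487). The call was lost under 17 of 23 alternatives, among them leaving out germ-free animal 3 (adjusted p = 0.204) or 4 (0.144) or conventional animal 7 (0.151) or 8 (0.115), and without germ-free animal 1 the difference was 1.24 (0.00299). With the beta-actin ratio as a covariate it was 0.37 (0.459), so the value moves with that ratio, and the part of RNA quality in it was not tested further.

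Pklr probe set 1 (1368651_at) had the same order among germ-free animals, at 135, 424 and 346, against 219, 171 and 238 in conventional livers. Here animal 1 was the lowest of all 6 Sprague Dawley rats and animals 3 and 4 the highest. The log2 difference was 0.37 ± 0.33 (limma adjusted p = 0.498), and 0.84 without germ-free animal 1 (0.0384). So only 1 of the 2 probe sets passed with all animals, and the difference between the probe sets was not tested. In antibiotic livers probe set 1 read 159, 137 and 271, against 231, 312 and 213 in untreated livers, and probe set 2 read 84.1, 65.7 and 103, against 103, 96.3 and 68.1. Both pairs of groups overlapped, with log2 differences of -0.42 ± 0.33 and -0.07 ± 0.27 (adjusted p = 0.721 and 0.965).

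Pygl encodes the liver glycogen phosphorylase, which releases glucose units from glycogen. Its signal (1368674_at) was 1181, 1446 and 1431 in germ-free animals 1, 3 and 4, against 701, 937 and 1044 in conventional animals 6, 7 and 8. The groups did not overlap, and conventional animal 6 was the lowest of the 12. The log2 difference was 0.60 ± 0.15 (limma adjusted p = 0.0201), with a 95% interval of 0.27 to 0.93. It no longer passed once germ-free animal 3 (adjusted p = 0.0836), germ-free animal 4 (0.0695) or conventional animal 6 (0.0688) was left out, nor with the beta-actin covariate (0.0658), under which the log2 difference was 0.67. In Han Wistar rats Pygl read 1020, 1115 and 1291 in antibiotic livers, against 1042, 1139 and 1378 in untreated livers. These groups overlapped, with a log2 difference of -0.05 and a 95% interval of -0.38 to 0.28. The difference between the comparisons was 0.65 ± 0.22 (adjusted p = 0.102).

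**Figure D3:**
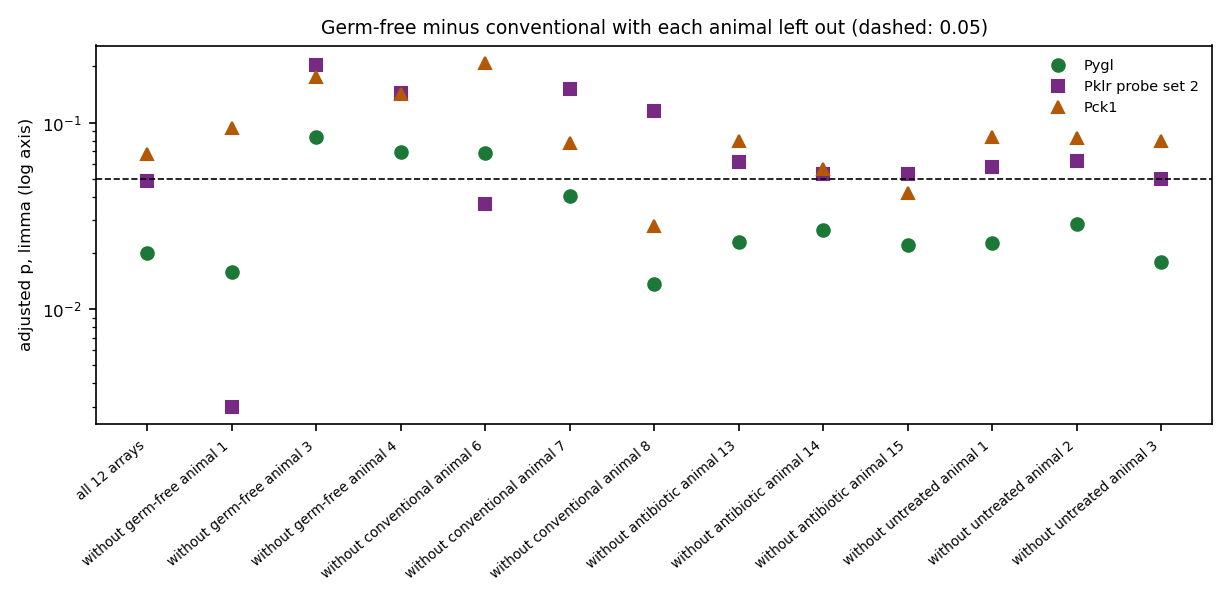
Adjusted p (limma, log axis) of germ-free minus conventional for Pygl, Pklr probe set 2 and Pck1, with all 12 arrays and with each animal left out in turn; the dashed line is 0.05. Pygl crosses the line without germ-free animals 3 or 4 or conventional animal 6, and Pck1 falls below it without conventional animal 8 (0.0280) or antibiotic animal 15 (0.0419). Leaving out an antibiotic or untreated animal does not change the germ-free minus conventional difference itself.

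Gys2 encodes the liver glycogen synthase, which works against Pygl. Its signal (1368328_at) was 371, 415 and 405 in germ-free livers, against 646, 351 and 351 in conventional livers. Conventional animals 7 and 8 lay below the germ-free livers and animal 6 far above them. On the log2 scale the difference was -0.11 ± 0.19 (limma adjusted p = 0.739) and turned to 0.17 without conventional animal 6. In antibiotic animals 13, 14 and 15 Gys2 read 426, 523 and 441, against 268, 317 and 263 in untreated animals 1, 2 and 3. Every antibiotic liver lay above every untreated liver. The log2 difference was 0.68 ± 0.19, with a 95% interval of 0.28 to 1.08 and an unadjusted limma p of 0.00269, the only unadjusted p under 0.05 among the members in this comparison. After adjustment over all probe sets it did not pass (adjusted p = 0.213). It lay between 0.59 and 0.76 under all 24 alternatives, with an adjusted p from 0.0700 to 0.489. The difference between the comparisons was -0.80 ± 0.26 (adjusted p = 0.104), and -1.17 with the beta-actin covariate (0.0315).

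Groups that did not overlap were counted over the 13 probe sets. In germ-free against conventional livers, 3 lay above (Pck1, Fbp1 and Pygl) and 1 below (Ppargc1a probe set 2), where 16.9% and 12.1% of all probe sets did. In antibiotic against untreated livers, 2 lay above (Fbp1 and Gys2) and 0 below, where 9.57% and 8.78% of all probe sets did. The 3 above in germ-free livers are 23.1% of 13, and the 2 above in antibiotic livers are 15.4%. For the difference between the comparisons 0 of 13 passed, where 5.03% of all probe sets did. At an unadjusted p under 0.05 the member count was 5 of 13, namely Pck1, Gys2, Pygl, Pklr probe set 2 and Ppargc1a probe set 2, against 20.0% of all probe sets.

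Ppargc1a encodes the transcriptional coactivator known for raising the genes of glucose production in fasting. Probe set 1 (1395518_at) read 32.6, 24.4 and 34.9 in germ-free livers, against 19.5, 51.0 and 72.4 in conventional livers. Probe set 2 (1393743_at) read 19.6, 19.5 and 16, against 22.6, 38.5 and 81.8. Conventional animal 8 was the highest of all 12 in both, and the germ-free livers lay close together. The log2 differences were -0.36 ± 0.31 (limma adjusted p = 0.487) and -0.78 ± 0.33 (0.140). Probe set 3 (1370089_at), under the filter, read 11.1, 2.0 and 12.9, against 15.4, 9.0 and 49.6, again highest in conventional animal 8.

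In antibiotic animals 13, 14 and 15 Ppargc1a probe set 1 read 25.3, 49.6 and 30.9, against 35.6, 19.1 and 9.2 in untreated livers, and probe set 2 read 16.7, 55.7 and 21.5, against 29.1, 10.8 and 12. Antibiotic animal 14 was the highest of this experiment in both, and the groups overlapped. The log2 differences were 0.49 ± 0.31 (limma adjusted p = 0.649) and 0.46 ± 0.33 (0.693). These signals lie near the filter, so the offset of 16 holds the differences down.

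Foxo1 encodes the forkhead factor that insulin signalling keeps out of the nucleus, a control exerted on the protein that transcript levels do not measure. Probe set 1 (1376779_at) read 231, 157 and 175 in germ-free livers, against 139, 201 and 256 in conventional livers. The groups overlapped fully, with a log2 difference of -0.05 and a 95% interval of -0.45 to 0.34. It read 108, 134 and 115 in antibiotic livers, against 110, 120 and 103 in untreated livers, a log2 difference of 0.09 (95% interval -0.31 to 0.48).

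Foxo1 probe set 2 (1377502_at), under the filter, read 17.6, 27.3 and 28.8 in germ-free livers, against 13.5, 2.9 and 12.9 in conventional livers, which did not overlap. With no filter its log2 difference was 0.67 ± 0.19 (limma adjusted p = 0.0596), unlike that of probe set 1. Probe set 3 (1375688_at) stayed at or below 10.8 in every animal. The probe sets of Foxo1 therefore gave unlike values, and only probe set 1 was well above the filter.

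Insr encodes the insulin receptor. Its probe set 1 (1392043_at) read 109, 91.0 and 103 in germ-free livers, against 109, 100 and 96.6 in conventional livers. It read 147, 158 and 139 in antibiotic livers, against 150, 159 and 134 in untreated livers. Both pairs of groups overlapped closely, with log2 differences of -0.02 (95% interval -0.25 to 0.22) and 0.00 (-0.24 to 0.24). Insr probe set 2 (1369051_at) read 39.6, 36.1 and 36.3 in germ-free livers, against 22.9, 24.8 and 47.7 in conventional livers, and 49.9, 64 and 39.5 in antibiotic livers, against 48.7, 57.3 and 51.8 in untreated livers. Its log2 differences were 0.19 ± 0.18 and -0.05 ± 0.18 (limma adjusted p = 0.530 and 0.967).

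Irs2 encodes an adaptor that passes the signal of the insulin receptor on to phosphoinositide kinase. Its signal (1371091_at) was 95.9, 85.2 and 53.2 in germ-free livers, against 52.6, 28.7 and 102 in conventional livers. Conventional animal 8 was the highest of the 12 and animal 7 the lowest, so the groups overlapped. Its log2 difference of 0.37 ± 0.27 did not pass (limma adjusted p = 0.410). In antibiotic livers Irs2 read 68.9, 50.5 and 58.6, against 44.0, 40.2 and 53.7 in untreated livers, with a log2 difference of 0.28 ± 0.27 (adjusted p = 0.798).

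**Figure D4:**
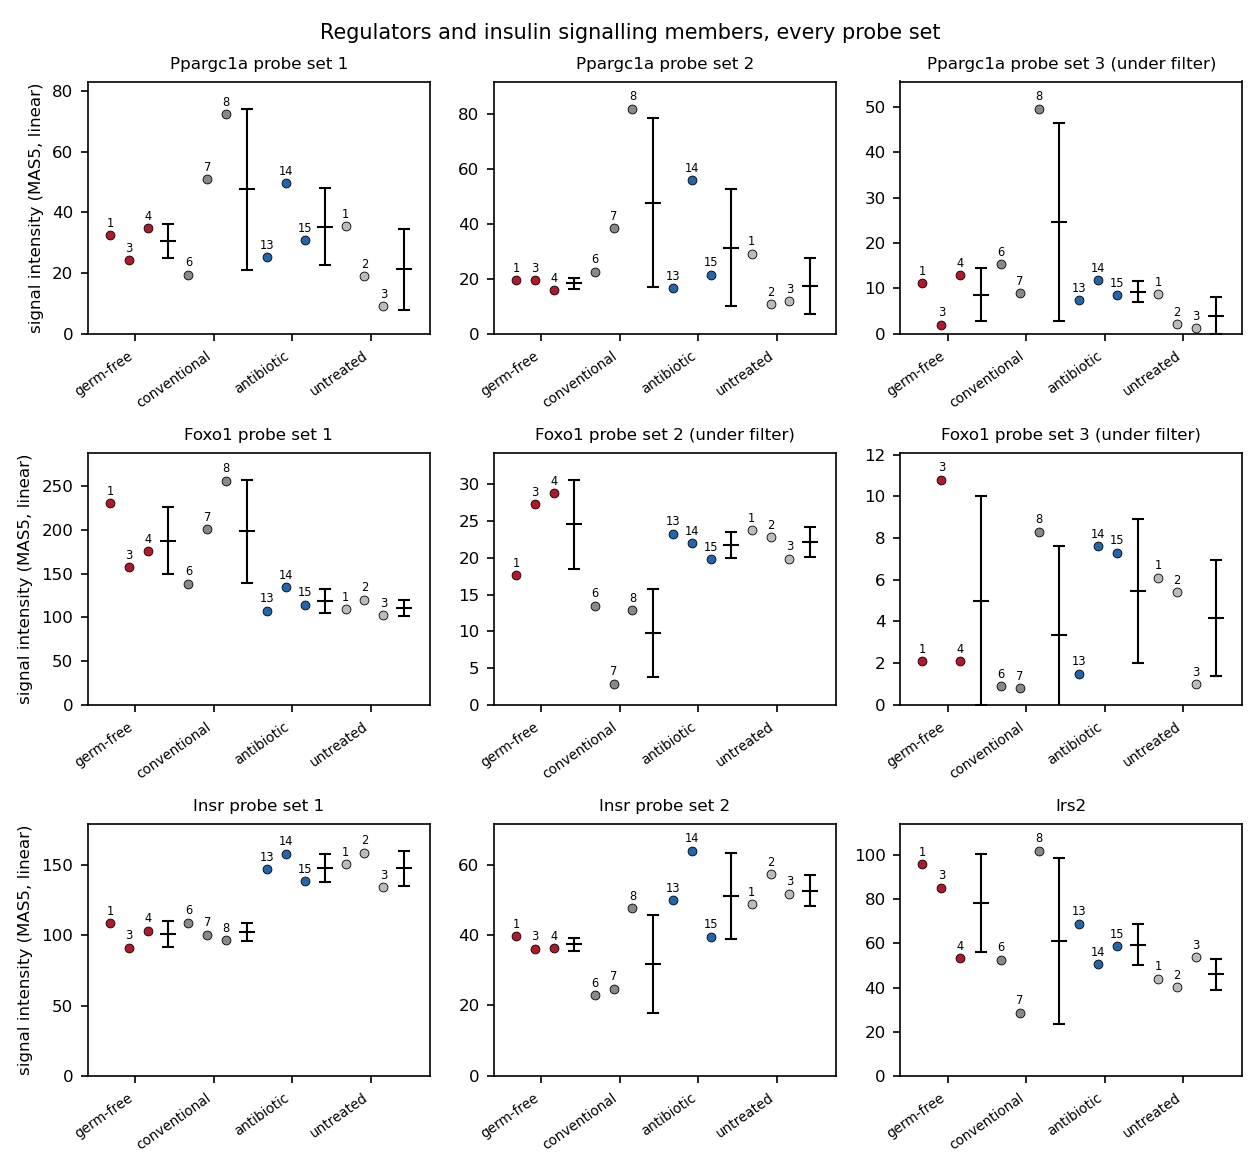
Linear signal of all 9 probe sets of Ppargc1a, Foxo1, Insr and Irs2 in each animal (points, numbered by animal), with the group mean and SD (n = 3, bars stopped at 0) drawn to the right of each group. All 3 Ppargc1a probe sets are highest in conventional animal 8 (72.4, 81.8 and 49.6).

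Within the conventional group, animal 6 was the lowest of its group in 8 of the 13 tested probe sets, Pck1, Fbp1, Slc2a2, Pygl, both of Ppargc1a, Foxo1 probe set 1 and Insr probe set 2, and the highest in 3, Gys2, Pklr probe set 2 and Insr probe set 1. Animal 8 was the highest in 10 of the 13. Over all 15523 probe sets tested, animal 6 was the lowest of the group in 32.3% and the highest in 40.5%, and animal 8 the highest in 29.6%. Several genes count here through a pair of probe sets, and the order of the animals was not tested. Igfbp1, a secreted binding protein whose gene insulin is known to repress, read 154, 544 and 791 in conventional animals 6, 7 and 8, the same order as Pck1, while Igfbp2, another binding protein, was highest in animal 6 (271, 78.1 and 116). The germ-free animals also spread, with Igfbp1 at 1715, 530 and 172 in animals 1, 3 and 4. Igfbp1 read 39.3, 86.6 and 185 in antibiotic animals 13, 14 and 15, and 110, 90.5 and 66.6 in untreated animals 1, 2 and 3. Outside the conventional group its order was not that of Pck1 in any group. Germ-free animal 1, with the highest Igfbp1, was the lowest of its group in both Pklr probe sets, Pck1, Fbp1, Slc2a2, Gys2 and Pygl, 7 of the 13 in all, and the highest in 5, 1 of Ppargc1a, Foxo1 probe set 1, both of Insr and Irs2. That animal was the lowest of its group in 35.9% of all probe sets and the highest in 37.6%. Igfbp1 did not pass in germ-free livers (log2 difference 0.40 ± 0.69, limma adjusted p = 0.756).

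Other genes of the pathway were followed in 5 lists, each gene by its probe set of highest mean signal. The list counts below stand beside 6.86% of all probe sets that rose and 5.39% that fell in germ-free livers. The lists were chosen with earlier results of these data known, so a count above these shares is no test of a list. In antibiotic livers 0 genes of these lists passed, where 0.0193% of all probe sets were called. In the list of glucagon, cyclic AMP and co-regulator genes, 6 of 27 rose in germ-free livers and 0 fell, with a median log2 difference of 0.12. That list also holds other regulators of glucose genes, such as the glucocorticoid receptor. Pde4b, a phosphodiesterase that breaks down cyclic AMP, read 185, 221 and 212 in germ-free livers, against 43.2, 49.7 and 52.4 in conventional livers (log2 difference 1.78 ± 0.17, limma adjusted p = 3.80e-05). Crem, which encodes activators and repressors that bind the cyclic AMP response element, averaged 992 ± 62.6 in germ-free livers, against 459 ± 85.7 in conventional livers (SD, n = 3 each; log2 difference 1.10 ± 0.13, limma adjusted p = 0.000133). All 6 Crem probe sets tested and both of Pde4b rose. Gcgr, the glucagon receptor, read 350, 372 and 343 in germ-free livers, against 217, 182 and 198 in conventional livers (0.79 ± 0.12, adjusted p = 0.000983). The other 3 that rose, named after their values were seen, were Creb1, Nr3c1 and Adra1b, which encode CREB, the glucocorticoid receptor and an adrenergic receptor. The log2 differences were 0.77 ± 0.14, 0.91 ± 0.14 and 0.61 ± 0.11 (limma adjusted p = 0.00251, 0.00103 and 0.00318), while other probe sets of Creb1 and Nr3c1 gave 0.16 (0.600) and 0.43 (0.0703).

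In antibiotic livers the same 3 leading genes had estimates below 0 that did not pass. Pde4b read 46.5, 49.1 and 67.8 there, against 114, 91.2 and 62.4 in untreated livers (log2 difference -0.56 ± 0.17, limma adjusted p = 0.271). The log2 differences of Crem and Gcgr were -0.46 ± 0.13 (0.212) and -0.22 ± 0.12 (0.585). Crem averaged 757 in antibiotic and 1046 in untreated livers, and Gcgr 226 and 264. Nr3c1 averaged 558 in germ-free, 287 in conventional, 427 in antibiotic and 423 in untreated livers. In the same order Adra1b averaged 424, 272, 347 and 404, and Creb1 201, 111, 138 and 121. Strains were not compared by a test, so a rise here is relative to conventional livers only.

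Among other enzymes and transporters of glucose production, 3 of 20 rose in germ-free livers and 2 fell, with a median log2 difference of -0.04. Pck2, the mitochondrial counterpart of Pck1, fell to 43.2, 32.8 and 20.8 in germ-free livers, against 136, 82.8 and 74.7 in conventional livers (-1.23 ± 0.22, limma adjusted p = 0.00261), where the Pck1 estimate was above 0. Slc16a1, a carrier of lactate and pyruvate, fell by 0.64 ± 0.13 on the log2 scale (adjusted p = 0.00659, and 0.0507 with the beta-actin covariate). Slc25a10, the mitochondrial dicarboxylate carrier, rose by 1.04 ± 0.16 (adjusted p = 0.000829) in one probe set, while its other probe set gave 0.05 (0.831). The probe set that rose averaged 830 in germ-free, 401 in conventional, 753 in antibiotic and 670 in untreated livers. The remaining 2 that rose, named after their values were seen, were Aqp9, a glycerol channel, and Slc37a4, which carries glucose phosphate into the endoplasmic reticulum. They rose by 0.53 ± 0.14 and 0.44 ± 0.12 on the log2 scale (limma adjusted p = 0.0211 and 0.0271), calls that were lost in 6 and 8 of 24 alternatives, both of them when any one of germ-free animals 3 and 4 and conventional animals 6 and 7 was left out. The catalytic subunit of glucose phosphatase, G6pc1, was not analysed here.

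Among genes of glycolysis and fructose use 0 of 18 rose and 1 fell, with a median of 0.00. This was Pdha1, a subunit of pyruvate dehydrogenase, at 494 ± 20.7 in germ-free livers, against 834 ± 20.3 in conventional livers (SD, n = 3 each; log2 difference -0.74 ± 0.11, limma adjusted p = 0.000734), while its other probe set gave -0.40 (0.177). Among other genes of glycogen metabolism 0 of 18 passed (limma, with 1 of 18 at an unadjusted p under 0.05), with a median of 0.05. Of all probe sets 12.2% were called and 27.6% had an unadjusted p under 0.05. Whether Pygl differs from the other glycogen genes was not tested. Among other genes of insulin signalling 1 of 27 rose, with a median of -0.03. This was Pde3b, the phosphodiesterase through which insulin is known to lower cyclic AMP, at 171, 289 and 223 in germ-free livers, against 102, 82.2 and 108 in conventional livers (1.08 ± 0.18, adjusted p = 0.00169). It averaged 217 in antibiotic and 224 in untreated livers.

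**Figure D5:**
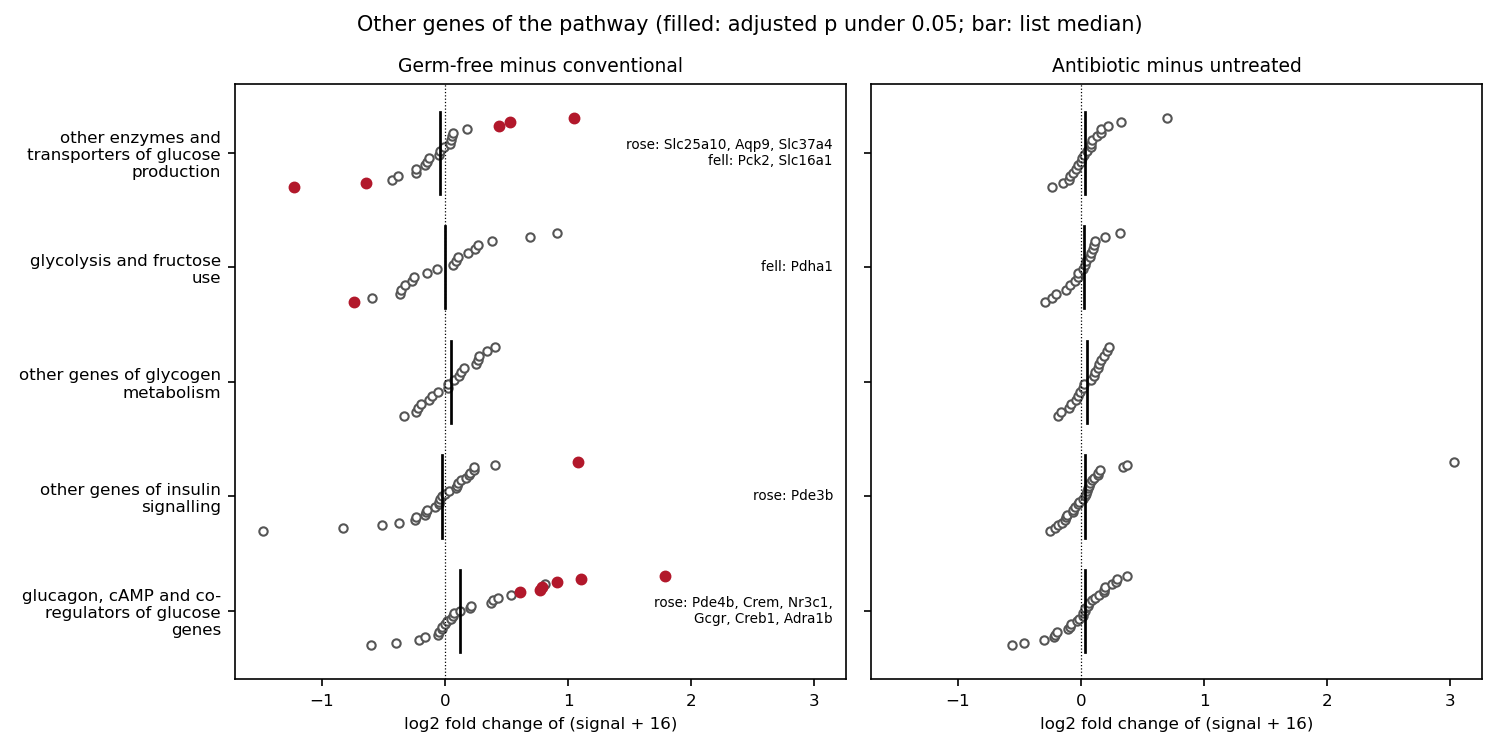
Log2 difference of (signal + 16) for each tested gene of the 5 pathway lists (points; filled where the adjusted p was under 0.05; vertical bars are list medians), for germ-free minus conventional (left) and antibiotic minus untreated (right). In germ-free livers 6 of 27 genes of the glucagon, cyclic AMP and co-regulator list rose, where 6.86% of all probe sets did. The lists were chosen with earlier results of these data known, so this count is no test of the list. No point is filled for antibiotic livers, where 0.0193% of all probe sets were called and Igfbp2 lies farthest out at 3.03.

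Markers of other cells moved in part with these comparisons. Of 6 endothelial markers 5 rose in germ-free livers, and their summed signal was 1279 to 1803 in germ-free livers, against 697 to 880 in conventional livers. Of 5 macrophage markers 1, Clec4f, fell, and the sums were 906 to 1184 in germ-free livers, against 1141 to 1626 in conventional livers. In antibiotic livers the macrophage sums were 955 to 1332, against 655 to 967 in untreated livers, with 3 of 5 markers at an unadjusted p under 0.05, 0 past adjustment (limma) and a median log2 difference of 0.56. The summed hepatocyte markers were 69115 to 79081 in germ-free livers, against 62303 to 68394 in conventional livers, and 54564 to 67283 in antibiotic livers, against 41133 to 49756 in untreated livers. In germ-free livers 1 of 9 hepatocyte markers, Apoa2, rose and 4 had an unadjusted p under 0.05 (limma), with a median log2 difference of 0.23, beside 0.27 for the 13 member probe sets. In antibiotic livers 9 of 9 hepatocyte markers had an unadjusted p under 0.05 and 0 passed after adjustment (limma), with a median log2 difference of 0.41, beside 0.68 for Gys2 and 0.21 for Fbp1. Of 7 stellate, 2 bile duct, 3 pancreatic and 1 adipose marker tested, 0 passed in either comparison, with 1 and 1, 0 and 0, 2 and 0, and 1 and 1 at an unadjusted p under 0.05 in germ-free and antibiotic livers. No lymphocyte or skeletal muscle marker reached the filter. The summed muscle markers were 19.2 to 30.1 in antibiotic livers, against 82.8 to 147.9 in untreated livers. The 8 pancreatic markers on the array summed to 244 to 276 in germ-free livers, against 308 to 449 in conventional livers. Their sums were 817 to 1060 in antibiotic livers, against 617 to 1011 in untreated livers. No marker was listed at 0 in any animal. The part of these cell types in the results above was not tested.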

How the data were processed

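Liver RNA of 12 rats was hybridised to 1-colour Affymetrix arrays, 1 per animal (5 ug of total RNA, extracted with RNeasy columns, per the labels' protocols). What the authors deposited is a linear signal intensity for each of 31099 probe sets on every array. MAS5 is the only tool named in the submitters' processing notes, without a version. After 2% was trimmed at each end, each array averaged 100.0, and the intensities were used without further scaling. This equal average does not show that the scaling was adequate, and median centring and quantile normalization were run as alternatives. The 57 control probe sets were set aside. The platform annotation gave a single symbol to 20826 of the others, more than one to 436 and none to 9780. Outdated symbols were replaced from the GRCr8 table by gene identifier (20758 matched) or by accession (2 matched), and 66 stayed as annotated.

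The test took in the 15523 probe sets whose signal averaged 19.67 (the median) or more. Values were transformed as log2(signal + 16), which understates changes of dim probe sets, and limma 3.58.1 (R 4.3.3; lmFit, then eBayes with a trend) was run with 1 mean per group over all 12 arrays, so that the groups share 1 estimate of the spread. P-values were two-sided, adjusted by Benjamini-Hochberg over all probe sets tested, with a threshold of 0.05. Nothing in the labels says whether animals shared a cage or litter. The number of arrays limits the precision. The fit was tested on simulated data.

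The 10 genes and the lists were chosen with earlier results of these data known. All member probe sets were named, and from each list up to 3 genes per comparison with the smallest p among those that passed, with Igfbp1 and Gcgr always; G6pc1 was not analysed here. Alternatives were other offsets, filters, normalizations and variance models, 1 probe set per gene, the beta-actin ratio as a covariate, and leaving out each animal. Promoters came from a RefSeq table; no genome was used.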

Additional observations from a re-analysis of the deposited data

Results flagged for a closer look

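For 11 genes of the pathway lists the difference between the comparisons (germ-free minus conventional, less antibiotic minus untreated) passed in limma, and for 0 of 13 member probe sets. The 5 lists held 20, 18, 18, 27 and 27 tested genes, and 5.03% of all probe sets passed. The lists were chosen with earlier results of these data known, and lists and members were not compared by a test. Strain and experiment go with the comparison and cannot be told apart from it, and the beta-actin ratio differs with it too. Pde4b differed by 2.34 on the log2 scale (adjusted p = 0.000190), Crem by 1.56 (0.000307) and Gcgr by 1.01 (0.00446), each having risen in germ-free livers with an estimate below 0 in antibiotic livers. Adra1b differed by 0.82 (0.00975) and Nr3c1 by 0.89 (0.0200), the other probe set of Nr3c1 giving 0.19 (0.654). Pde3b differed by 1.11 (0.0242) and Pdha1 by -0.77 (0.0110), with antibiotic estimates of -0.03 and 0.03. The other probe set of Pdha1 gave -0.39 and did not pass (0.450). Slc25a10 differed by 0.88 (0.0357) in its brighter probe set and by 0.07 (0.875) in the other.

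Igfbp2, a binding protein of insulin-like growth factors, differed by -4.51 (limma adjusted p = 0.00392). It read 121, 21.0 and 16.6 in germ-free livers, against 271, 78.1 and 116 in conventional livers (log2 difference -1.48 ± 0.52, adjusted p = 0.0799), and 392, 766 and 247 in antibiotic livers, against 38.1, 25.7 and 52.0 in untreated livers (3.03 ± 0.52, adjusted p = 0.0867). Without germ-free animal 1 both passed, at -2.14 (0.00806) and 3.03 (0.0212). Mpc2, of the mitochondrial pyruvate carrier, differed by -0.75 (0.0363), and Khk, the fructose kinase, by 0.54 (0.0497); neither passed in a single comparison with all 12 arrays, though Mpc2 passed for germ-free minus conventional in 9 of 24 alternatives (adjusted p = 0.0510 with all arrays) and Khk in 1, without germ-free animal 1 (0.0452). Of 23 alternatives, the difference between the comparisons lost its call in 16 for Khk, 12 for Mpc2, 11 for Slc25a10, 5 for Pde3b, 4 for Nr3c1 and 1 for Adra1b, among them leaving out germ-free animal 3 for Pde3b (0.0597) and antibiotic animal 15 for Nr3c1 (0.0501), and in 0 for Pde4b, Crem, Gcgr, Pdha1 and Igfbp2.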

How the results depend on the processing

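No paired analysis was possible because the groups compared share no animal numbers. No call changed direction under the alternatives run. The member count called in germ-free livers (2) was 1 with an offset of 1, no filter, quantile normalization, median centring, own 6 arrays, 1 probe set per gene, no variance trend or a robust prior, 3 with array weights, 0 with the beta-actin covariate, and 0 to 3 with each animal left out. In antibiotic livers it was 0 throughout. For the difference between the comparisons (0) it was 2 with quantile normalization, 1 with array weights, 1 with the beta-actin covariate, and 0 to 2 with each animal left out. Over all probe sets the germ-free count (1901) was 875 with the beta-actin covariate and 1006 without germ-free animal 3, the antibiotic count (3) was 25 with array weights, and the difference count (781) was 365 with the covariate and 1229 with array weights. Of the members, Pygl kept its call in 20 of 24 alternatives and Pklr probe set 2 in 6 of 23; Fbp1 passed with array weights (0.0458). The difference between the comparisons passed for Pygl with quantile normalization (0.0463) and for Pklr without germ-free animal 1 (probe set 1 0.0404, probe set 2 0.0211), and for probe set 2 also with array weights (0.0343). The cause of these changes was not tested. The Ppargc1a signals lie near the filter, where signal over background limits what can be seen.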
